A study of Mus musculus with 4 samples.

Results

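Circular RNAs (circRNAs) made from genes of the ubiquitin system were followed through mouse lung development. A circRNA forms when the end of a downstream exon is joined back to the start of an upstream exon, and the reads that cross this back-splice are its junction reads. Host genes were taken by name: every host whose symbol begins with Usp, Ube2, Ube3, Ube4, Ubr, Herc, Fbxo, Fbxw, Fbxl, Rnf or Trim, or with Cul and a digit, with Ube2k left out. This gave 123 of the 4618 host genes, 370 of the 13499 listed circRNAs, and 3136 of the 121689 junction reads (2.58%). The lungs came from C57BL/6 mice at the pseudoglandular stage (embryonic day 14.5), the canalicular stage (embryonic day 16.5), the terminal sac stage (embryonic day 18.5) and the alveolar stage (newborn day 7.5). No treatment or genetic change is labelled in any of them. There was 1 library for each stage, and the labels do not give how many animals went into a library. Each comparison is therefore of libraries, with no replicate check and no p-value. The intervals given are 95% intervals that cover the counting error of reads only, and reads copied by PCR are not independent molecules.

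Ubiquitin is a small protein that is attached to other proteins by a relay of enzymes. An E1 activates it, an E2 (the Ube2 genes) carries it, and an E3 ligase chooses the protein to be marked. E3 ligases include RING proteins (Rnf and Trim), HECT proteins (Ube3a and Herc), the Ubr proteins, several of which recognise destabilising protein ends, and cullin complexes, in which a cullin scaffold such as Cul1 holds an F-box protein (Fbxo, Fbxw or Fbxl) that binds the substrate. Deubiquitinases such as the Usp proteins remove the mark. In the embryo the system sets the lifetimes of cyclins and of signalling proteins of the Notch, Wnt and TGF-beta pathways, and it marks histones. Selection by name also takes in genes with other activities, for instance Usp6nl, which encodes a GTPase-activating protein for Rab proteins and no deubiquitinase.

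The libraries listed 25983, 31218, 36156 and 28332 junction reads in order of stage, and circRNAs with 2 reads, the fewest that any file holds, made up 37.4% to 41.5% of each list. A host that is not listed may therefore still have been transcribed into circles. Genes of the lung's cell types were checked as circRNA hosts. An alveolar type 2 list of 6 genes had 0, 6, 442 and 766 junction reads in order of stage, with Abca3 at 0. An endothelial list of 5 genes had 6, 19, 24 and 70 reads, a mesenchymal list of 5 had 19, 10, 11 and 173, and an immune list of 4 had 6, 31, 29 and 11. In order of stage, 2, 1, 2 and 5 of the endothelial genes were listed. For the mesenchymal list it was 2, 2, 3 and 2, so the 173 alveolar reads came from 2 genes. For the immune list it was 3, 2, 2 and 2. A cycling-cell list of 4 genes had 99, 129, 102 and 24 reads, and 2 listed genes of a cardiac and striated muscle list of 4 (Ttn and Ryr2) had 73, 11, 8 and 12. Of a lung epithelial list of 5 genes, Foxp2 and Esrp1 had 8, 18, 14 and 2 reads, and Nkx2-1, Cdh1 and Epcam were at 0 in every library. Of a type 1 list of 4, Rtkn2 had 0, 0, 7 and 12 reads, and Ager, Hopx and Aqp5 were at 0, as were the 3 erythroid genes. In whole tissue, fewer cells of a type and less RNA per cell cannot be told apart.

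The back-splice junctions of the circles on which the results turn are printed here, because the junction is the sequence that tells a circle from the linear transcript of its host. Each line gives the circle's exons and its position (build mm10), then 25 bases that end the last exon joined to 25 bases that begin the first exon, read 5′ to 3′ along the gene, with the 5 bases on each side of the join in capitals. The bases come from GENCODE M21 transcripts, and all of them are coding.
Usp3 exons 2 to 8, chr9:66540062-66566903, minus strand: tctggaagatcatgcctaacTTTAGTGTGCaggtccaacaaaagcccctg
Usp3 exons 4 to 8, chr9:66540062-66547955, minus strand: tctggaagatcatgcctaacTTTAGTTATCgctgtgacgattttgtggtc
Rnf169 exons 2 to 4, chr7:99935162-99955540, minus strand: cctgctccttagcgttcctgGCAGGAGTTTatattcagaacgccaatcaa
Rnf216 exon 4, chr5:143090120-143090929, minus strand: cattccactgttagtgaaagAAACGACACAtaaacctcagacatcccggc
Fbxw4 exons 2 to 5, chr19:45630865-45640521, minus strand: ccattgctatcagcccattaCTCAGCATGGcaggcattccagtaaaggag
Fbxw4 exons 2 to 4, chr19:45635735-45640521, minus strand: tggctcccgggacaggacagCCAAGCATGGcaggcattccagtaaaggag
Fbxl5 exons 2 to 9, chr5:43758222-43773659, minus strand: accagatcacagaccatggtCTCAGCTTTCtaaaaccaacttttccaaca
Trim24 exons 10 to 16, chr6:37949222-37958694, plus strand: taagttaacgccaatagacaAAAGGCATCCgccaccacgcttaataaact
Ube2cbp exons 2 to 8, chr9:86422841-86452010, minus strand: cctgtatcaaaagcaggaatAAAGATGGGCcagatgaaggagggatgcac
Rnf214 exons 4 to 6, chr9:45890804-45898491, minus strand: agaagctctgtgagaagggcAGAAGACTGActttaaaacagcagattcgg
Usp12 exons 4 to 6, chr5:146751695-146754599, minus strand: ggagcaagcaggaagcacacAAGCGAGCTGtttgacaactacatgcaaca
Usp12 exons 3 to 6, chr5:146751695-146763414, minus strand: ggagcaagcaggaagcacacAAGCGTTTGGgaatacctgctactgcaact
Trim33 exons 2 to 4, chr3:103310309-103311513, plus strand: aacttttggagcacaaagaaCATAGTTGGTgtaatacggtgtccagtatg
Usp46 exons 2 to 4, chr5:74029141-74037113, minus strand: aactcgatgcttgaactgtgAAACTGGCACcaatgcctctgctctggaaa
The Usp3 pair and the Usp12 pair each share the bases before the join, since both circles of a host end at the same exon. The Fbxw4 pair shares the bases after the join, since both begin at exon 2.

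The 123 hosts were unequal in abundance. Usp3, which encodes a deubiquitinase of histones H2A and H2B, had 510 junction reads, and Rnf169, which encodes a RING protein that binds ubiquitin-marked chromatin at DNA breaks, had 402. The pair held 912 reads, 29.1% of the total, and between 28.0% and 30.4% in each library. The next hosts were Rnf216 with 121 reads, Fbxw7 with 109 and Fbxw4 with 100. The median host had 9 reads, 62 hosts had under 10, and 41 had 20 or more. By library, 37 hosts were listed in all 4, 19 in 3, 22 in 2 and 45 in 1. The RING hosts named Rnf were the largest family, with 33 hosts and 1022 reads, followed by the Usp family with 29 hosts and 912 reads and the Fbxw family with 4 hosts and 251 reads.

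**Figure D1:**
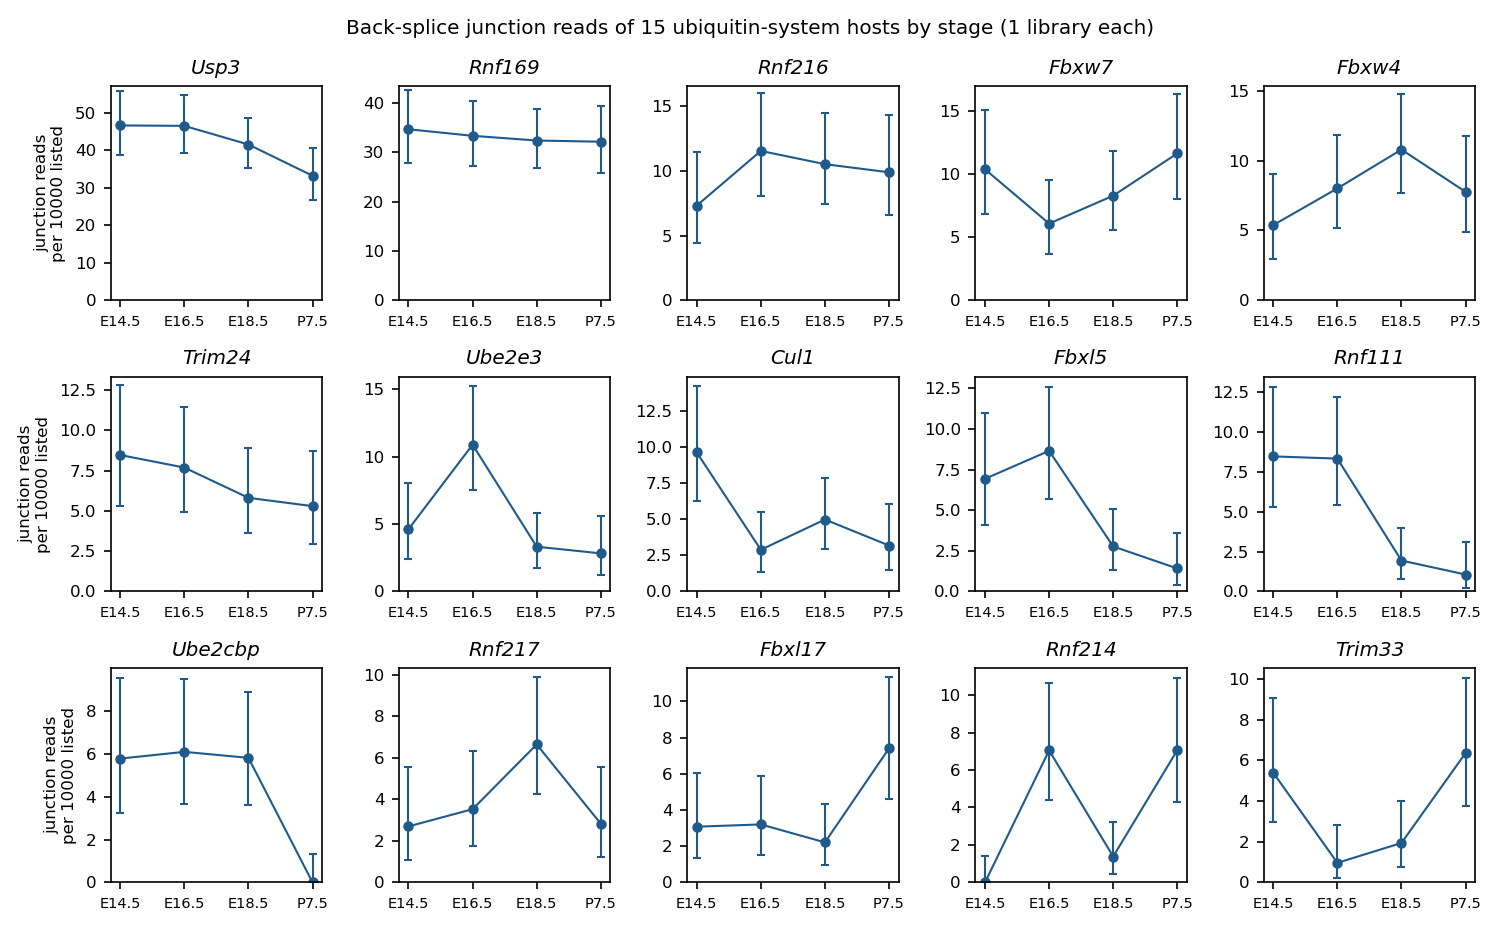
Junction reads of 15 hosts with many reads, per 10000 listed junction reads of each library (vertical axis, a separate linear scale for each host), at embryonic days 14.5, 16.5 and 18.5 and newborn day 7.5; the bars are exact 95% counting intervals and there is 1 library per point. Rnf169 stayed between 32.1 and 34.6 per 10000, Rnf111 and Fbxl5 were higher at embryonic days 14.5 and 16.5 than at the later stages, and Ube2cbp and Rnf214 each had a library in which they were not listed.

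The share of all listed junction reads that came from these hosts was 2.79% (exact interval 2.59 to 2.99) in the pseudoglandular library, 2.63% (2.45 to 2.81) in the canalicular library, 2.64% (2.48 to 2.81) in the terminal sac library and 2.25% (2.08 to 2.43) in the alveolar library. The alveolar library was the lowest, and its interval did not overlap those of the other libraries. A part of the alveolar list consists of circles whose ends hold a direct repeat of 6 or more bases or whose reads show few alignment patterns, which can arise in making or aligning a library. Such circles held 8.57% of alveolar reads, against 2.57% to 2.88% in the earlier libraries. Without them the share was 2.86% (2.65 to 3.07), 2.70% (2.52 to 2.88), 2.72% (2.55 to 2.89) and 2.46% (2.28 to 2.66) in order of stage, and the alveolar interval overlapped those of all 3 earlier libraries. The number of these hosts listed was 72, 76, 81 and 65 in order of stage, beside 2464, 2525, 2695 and 2338 hosts over all genes. The alveolar list was thus the shortest for both.

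The make-up of the circles is given beside that of circles from other genes. Exon-type circles were 89.5% of the 370, against 88.9% of the 12638 other circRNAs with a host, and 81.9% against 76.9% had both ends at exon boundaries of a transcript. Of those with such ends, 113 of 303 (37.3%) began at exon 2, against 29.2% elsewhere. The median circle held 4 exons and 613 spliced bases, against 5 exons and 651 bases. The ends lay a median 8.51 kb apart in the genome, against 9.94 kb. A direct repeat or few alignment patterns marked 1 of the 370 circles (0.27%), against 2.60% of the others. In 1 library only were 72.2% of the circles listed, against 74.0%, and in all 4 libraries 22 of them (5.95%), against 6.85%. Those 22 circles held 1529 reads, 48.8% of the total. No test was made of these differences, since circles of a host share its sequence and often an end: 210 of the 370 (56.8%) shared an end with another circle of their host.

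Pairs of libraries were compared host by host, taking hosts with at least 10 junction reads over both. The measure was the share of listed junction reads in the later library divided by that in the earlier one. It was called higher or lower where the ratio was at least 2-fold and its interval excluded 1. A host unlisted in a library was set to 3 reads there, so that its ratio is a bound, which holds only if the library had 3 or fewer of its reads. In the alveolar against the pseudoglandular library, 36 of the 123 hosts could be compared, 4 were higher and 7 were lower. Over all hosts 15.2% were higher and 17.2% were lower, so the shares among the ubiquitin-system hosts, 11.1% and 19.4%, lay near the background. In the canalicular against the pseudoglandular library 3 of 40 were higher and 6 were lower (7.50% and 15%), beside 11.5% and 11.4% of all hosts. In the terminal sac against the canalicular library 7 of 47 were higher and 6 were lower (14.9% and 12.8%), beside 14.5% and 12.5%. In the alveolar against the terminal sac library 5 of 44 were higher and 8 were lower (11.4% and 18.2%), beside 12.1% and 16.4%.

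The median log2 ratio of the hosts compared was -0.40 in the alveolar against the pseudoglandular library, where it was -0.12 over all hosts. It was -0.10 in the canalicular against the pseudoglandular library (0.01 over all hosts), -0.07 in the terminal sac against the canalicular (0.03) and -0.23 in the alveolar against the terminal sac (-0.23). The terminal sac against canalicular split depended on the scaling. Scaled by non-junction reads (median of ratios over circRNAs listed in all 4 libraries, an alternative chosen after the data were seen), which shifts every log2 ratio of that comparison by 0.59, 15 hosts were higher and 3 lower, and the background became 27.3% and 5.02%. The shares called lay near the background in each comparison, and the values that follow are those of single hosts. Each library enters 2 comparisons, so a host that stands out in 1 library can be called in both. The marker lists above moved between the same libraries, for instance the cycling-cell list with 24 reads in the alveolar against 99 in the pseudoglandular library, and their part in the calls was not tested.

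**Figure D2:**
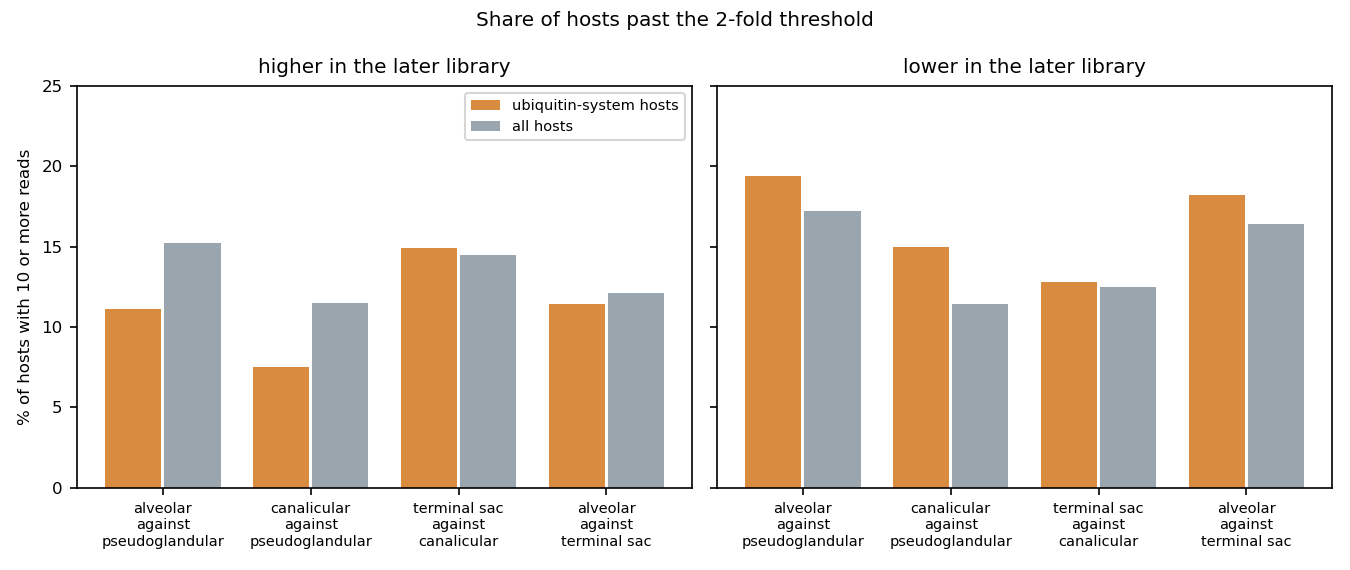
Percent of hosts with 10 or more junction reads that were higher (left) or lower (right) in the later library of each pair, for ubiquitin-system hosts (orange) and for all hosts (grey). The bars of a pair lie close together: among ubiquitin-system hosts the shares run from 7.50% to 19.4%, and among all hosts from 11.4% to 17.2%.

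**Figure D3:**
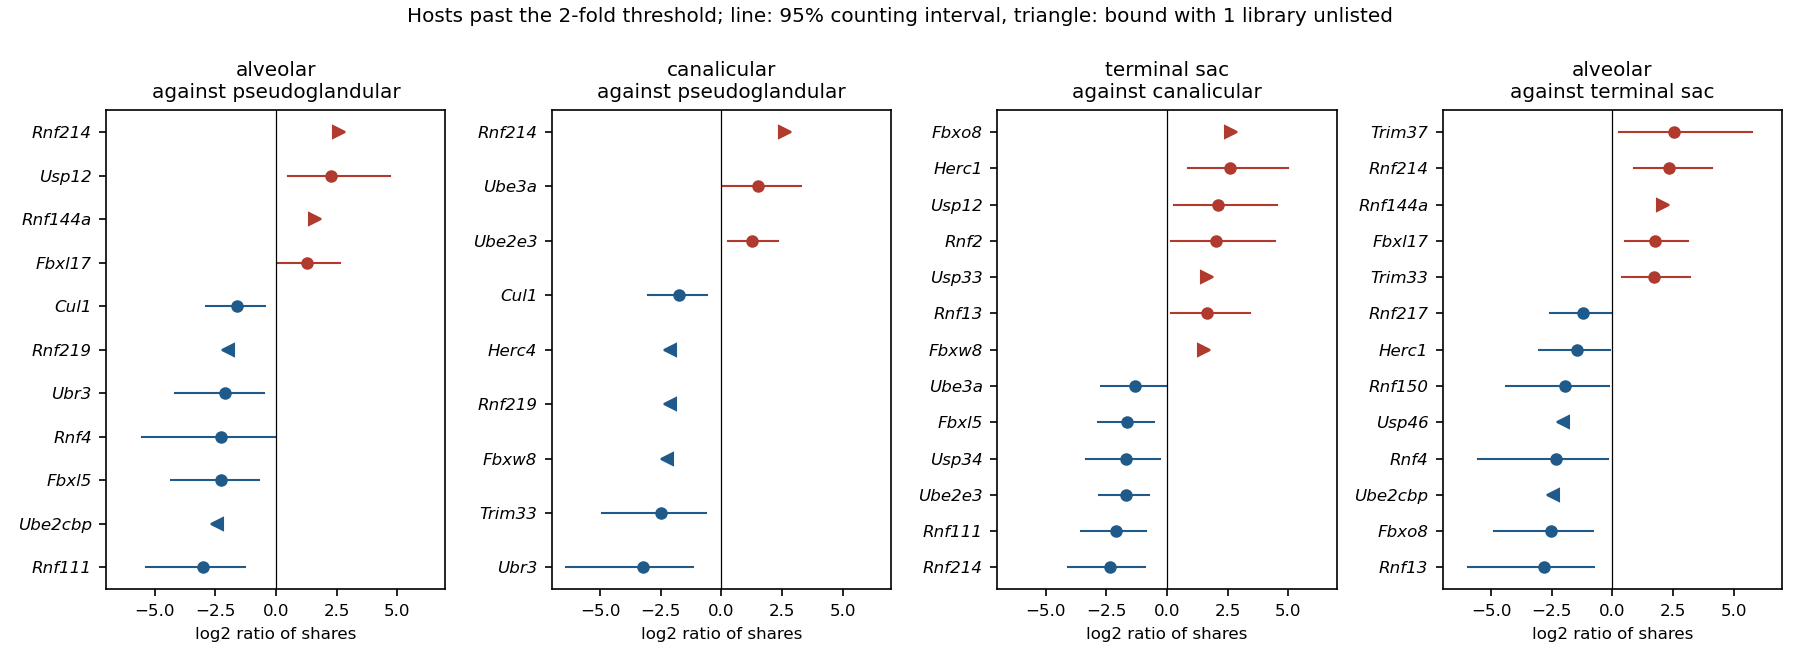
Log2 ratio of the shares of listed junction reads for each ubiquitin-system host past the threshold, the later library over the earlier; lines are 95% counting intervals, and triangles are bounds for hosts unlisted in a library. Rnf214 appears in all 4 comparisons, higher in 3 and lower in 1.

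Of the E2 enzymes, Ube2e3 was the leading host, with 1 circle of exons 4 to 6 whose end lies inside an exon. Ube2e3 had 12, 34, 12 and 8 junction reads in order of stage, and the canalicular library stood above the rest. Its share was 2.36-fold higher in the canalicular than in the pseudoglandular library (1.19 to 5.0), and 3.28-fold lower in the terminal sac than in the canalicular library (1.66 to 6.96). The non-junction reads at its ends, which come from linear RNA, were 654, 586, 372 and 318, with no such peak. The junction ratio, which is 2 times the junction reads over that number plus the non-junction reads, was 0.0354, 0.104, 0.0606 and 0.0479.

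Cul1 encodes the scaffold of the SCF ligases, in which F-box proteins choose the substrate. Cul1 had 25, 9, 18 and 9 junction reads over 6 circles, highest in the pseudoglandular library. Its share was 3.03-fold lower in the alveolar than in the pseudoglandular library (1.37 to 7.37) and 3.34-fold lower in the canalicular than in the pseudoglandular library (1.51 to 8.13). Its circles are rare beside the linear RNA: over the 4 libraries its junction ratio was 0.00952, the second lowest of the 41 hosts with 20 or more reads.

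The F-box hosts with most reads, Fbxw7 and Fbxw4, were called in no comparison. Fbxw7, the substrate receptor for cyclin E, Myc and Notch, had 27, 19, 30 and 33 reads. Its leading circle is exon 4 alone (579 bases), with 25, 19, 25 and 30 reads, 90.8% of the host's total, and a junction ratio between 0.148 and 0.208. Fbxw4, whose locus carries the dactylaplasia mutations of mice, had 14, 25, 39 and 22 reads. Its circle of exons 2 to 5 had 10, 13, 20 and 16 reads, and its circle of exons 2 to 4, which begins at the same base, had 4, 6, 13 and 3. As a share of listed junction reads, the ratio of the alveolar to the terminal sac library was 1.02 (0.495 to 2.07) for the longer circle and 0.294 (0.0538 to 1.07) for the shorter one, and both intervals include 1.

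Fbxl5, the iron-sensing receptor that directs degradation of the iron regulatory protein IRP2, had 18, 27, 10 and 4 reads, with the 2 earlier libraries above the 2 later ones. Its share was 4.91-fold lower in the alveolar than in the pseudoglandular library (1.62 to 19.9), and 3.13-fold lower in the terminal sac than in the canalicular library (1.47 to 7.24), a call that was lost when scaled by non-junction reads (log2 ratio -1.05). The circle of exons 2 to 9 carried 15, 22, 10 and 4 of these reads. The linear reads at the ends of this circle did not drop alongside, with 416, 583, 478 and 439 non-junction reads. Its odds of junction to non-junction reads were 3.63-fold lower in the alveolar than in the pseudoglandular library (1.26 to 10.5). Summed over the host, the non-junction reads were 829, 1128, 478 and 439. The odds ratio by these sums was 0.459 (0.163 to 1.3) between the same libraries, which was not called.

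Fbxl17, a receptor that checks the pairing of BTB-domain proteins, had 8, 10, 8 and 21 reads, with most in the alveolar library. Its share was 2.41-fold higher in the alveolar than in the pseudoglandular library (1.02 to 6.29) and 3.35-fold higher in the alveolar than in the terminal sac library (1.43 to 8.74). These reads were spread over 9 circles. Only the circle of exons 2 to 4 reached the minimum of 10 reads in these comparisons. It had 8 alveolar reads against 4 pseudoglandular and 6 terminal sac reads and was not called. Fbxo8, an F-box protein with a Sec7 domain, made 1 circle, of exons 2 and 3, with 9, 0, 22 and 3 reads. The terminal sac library was at least 6.33-fold above the canalicular, and the alveolar was 5.75-fold below the terminal sac (1.73 to 30.0). The non-junction reads at its ends were 139 in the pseudoglandular library, 257 in the terminal sac library and 241 in the alveolar library, so that the junction odds were 6.03-fold lower in the alveolar than in the terminal sac library (1.93 to 18.8). Fbxw8, which works with the cullin Cul7, made 1 circle, of exons 6 and 7, with 12, 0, 10 and 13 reads. It was unlisted in the canalicular library alone, which was at least 4.81-fold below the pseudoglandular, and the terminal sac was at least 2.88-fold above the canalicular.

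Rnf169 led the RING hosts and was called in no comparison by its share, with 90, 104, 117 and 91 reads. The ratio of its shares was 0.927 (0.685 to 1.26) in the alveolar against the pseudoglandular library. Its circle of exons 2 to 4 had 86, 92, 117 and 80 reads and a junction ratio of 0.251, 0.202, 0.331 and 0.256. A longer circle of exons 2 to 6, which ends inside exon 6, had 4, 12, 0 and 8 reads. It was unlisted in the terminal sac library, at least 4.63-fold below the canalicular. Rnf216, a ligase of the RING-between-RING kind, had 19, 36, 38 and 28 reads over 10 circles and was called in no comparison. Its circle of exon 4 alone (810 bases) had 13, 22, 16 and 14 reads in order of stage. A circle of exons 4 and 5 that begins at the same base was listed in the terminal sac library (9 reads) and the alveolar library (7 reads) only.

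Rnf111, known as Arkadia, is a ligase that raises TGF-beta signalling by degrading its repressors. Rnf111 had 22, 26, 7 and 3 reads, the 2 earlier libraries lying above the 2 later ones. Its share was 8.0-fold lower in the alveolar than in the pseudoglandular library (2.40 to 41.7) and 4.30-fold lower in the terminal sac than in the canalicular library (1.82 to 11.7). The difference between the canalicular and terminal sac libraries lay mainly in 1 circle. Exon 3 alone had 11 and 16 reads in the pseudoglandular and canalicular libraries and was not listed in the terminal sac or alveolar library, at least 6.18-fold lower in the terminal sac than in the canalicular library. The circle of exons 3 and 4, which begins at the same base, had 11, 7, 7 and 3 reads. The deposited non-junction reads of that circle were 180, 130, 109 and 143.

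Rnf214, a RING protein, had 0, 22, 5 and 20 reads over 6 circles, alternating between libraries. It was at least 6.11-fold higher in the alveolar and at least 6.10-fold higher in the canalicular than in the pseudoglandular library. It was 5.10-fold lower in the terminal sac than in the canalicular library (1.88 to 17.2) and 5.11-fold higher in the alveolar than in the terminal sac library (1.86 to 17.4). The circle of exons 4 to 6 took 10, 5 and 10 of the reads in the canalicular, terminal sac and alveolar libraries. The linear reads at its ends were 544, 406 and 469. The odds ratio of this circle was 0.702 (0.248 to 1.98) in the terminal sac against the canalicular library. It was 1.65 (0.584 to 4.68) in the alveolar against the terminal sac library, and both intervals include 1. Summed over the host, the non-junction reads were 2733, 406 and 1863. The odds ratios by these sums were 1.64 (0.643 to 4.20) and 0.813 (0.315 to 2.10), in the opposite directions.

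Rnf219, also called Obi1, marks the origin recognition complex during DNA replication. It made 1 circle, of exons 2 to 5, with 11 reads in the pseudoglandular library and none listed later, at least 4.0-fold lower in the alveolar and at least 4.41-fold lower in the canalicular than in the pseudoglandular library. Rnf144a, a RING-between-RING ligase, had 0, 2, 0 and 10 reads, at least 3.06-fold higher in the alveolar than in the pseudoglandular library and at least 4.25-fold higher than in the terminal sac library. Rnf4, a ligase that recognises SUMO-modified proteins, had 9, 8, 13 and 2 reads. It was 5.09-fold lower in the alveolar than in the terminal sac library (1.15 to 46.5) and 4.91-fold lower than in the pseudoglandular library (1.02 to 46.7), a call lost under each other scaling and without circles with repeated ends or few alignment patterns. Rnf13, a membrane-bound ligase of the endosome, had 2, 5, 18 and 2 reads, with the terminal sac library above the rest. It was 3.11-fold higher in the terminal sac than in the canalicular library (1.11 to 10.7) and 7.05-fold lower in the alveolar than in the terminal sac library (1.69 to 62.7). Rnf2, the ligase that marks histone H2A within the Polycomb complex PRC1, had 8, 3, 14 and 7 reads and was 4.03-fold higher in the terminal sac than in the canalicular library (1.12 to 21.9). Of the remaining RING hosts past the threshold, Rnf150 had 3 reads in the alveolar library against 15 in the terminal sac library, 3.92-fold lower (1.11 to 21.1). Rnf217 had 8 against 24, 2.35-fold lower (1.02 to 6.05). This call was lost when scaled by the median of ratios over hosts (log2 ratio -1.11) or by the total of non-junction reads (-1.17). It was also lost without circles with repeated ends or few alignment patterns (-1.15). None of the ubiquitin-system reads in these libraries came from such circles (954 and 638 with and without them). For Rnf217, leaving them out changed only the library totals.

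Among the Trim hosts, Trim24, a chromatin reader and transcriptional co-regulator, had 22, 24, 21 and 15 reads. As a host it was called in no comparison by its share. Its odds summed over the host were lower in the alveolar than in the terminal sac library (odds ratio 0.485, 0.251 to 0.937). Its circles varied apart from each other. Exons 10 to 16 had 4, 18, 8 and 3 reads, 3.75-fold higher in the canalicular than in the pseudoglandular library (1.23 to 15.2) and 2.61-fold lower in the terminal sac than in the canalicular library (1.08 to 6.93). Exons 2 to 7 had 8, 0, 6 and 8 reads, so that the library with most of the first circle listed none of the other. Trim33, which binds SMAD proteins in TGF-beta signalling, had 14, 3, 7 and 18 reads, lowest in the canalicular library. Its share was 5.61-fold lower in the canalicular than in the pseudoglandular library (1.56 to 30.4) and 3.28-fold higher in the alveolar than in the terminal sac library (1.31 to 9.29). Its circle of exons 2 to 4 had 6, 3, 2 and 10 reads, and its odds of junction to non-junction reads were 4.77-fold higher in the alveolar than in the terminal sac library (1.18 to 19.2). Trim37, a ligase that limits centriole formation, had 0, 3, 2 and 9 reads and was 5.74-fold higher in the alveolar than in the terminal sac library (1.19 to 54.6), a call lost when scaled by non-junction reads (log2 ratio 2.17).

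**Figure D4:**
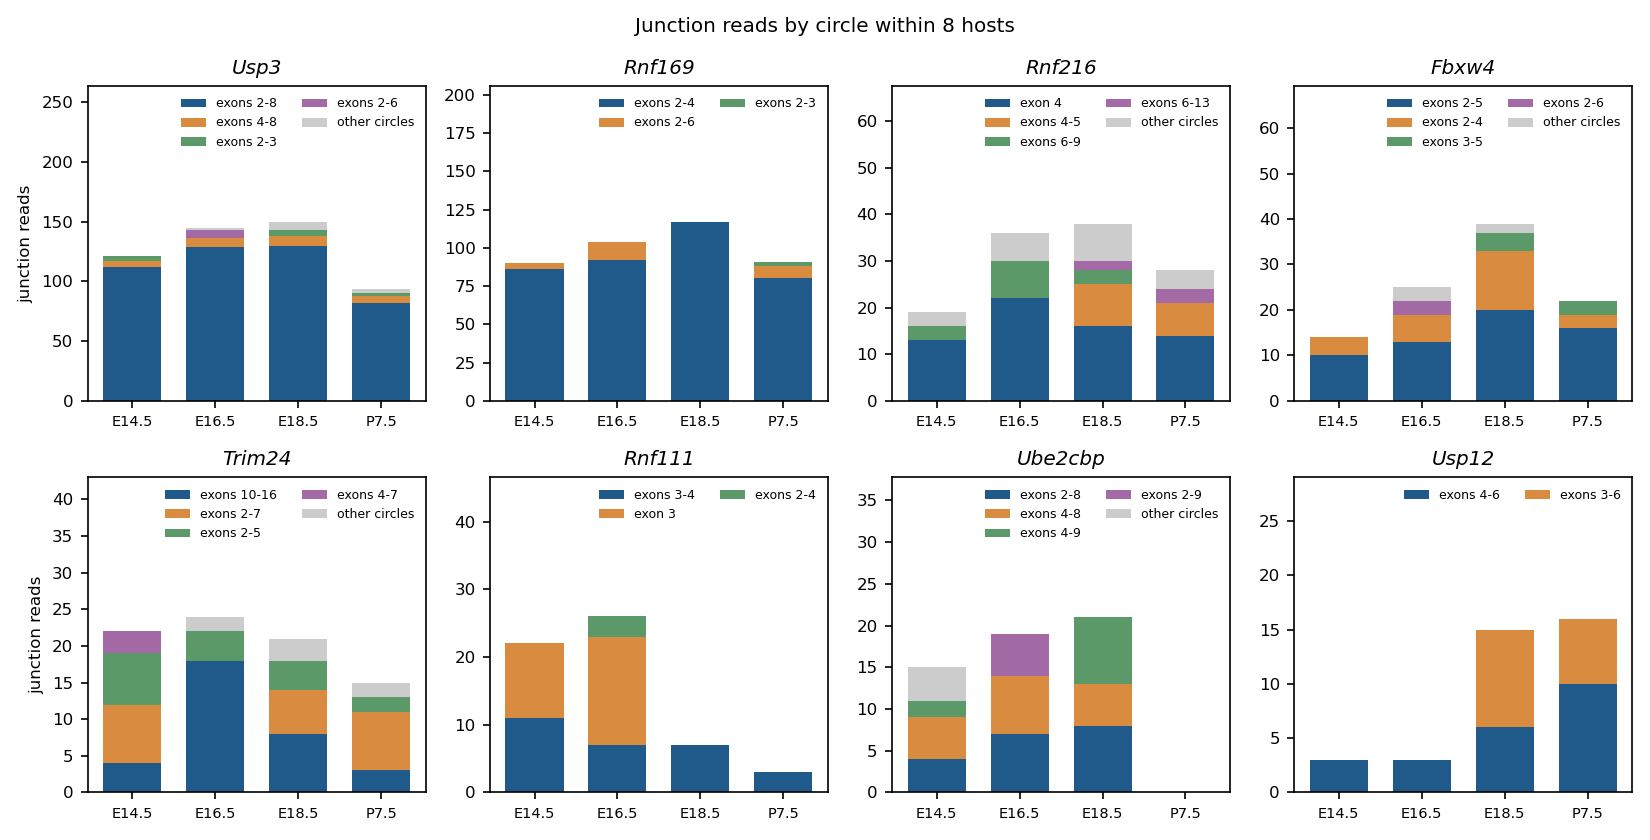
Junction reads of the circles of 8 hosts, stacked by library at embryonic days 14.5, 16.5 and 18.5 and newborn day 7.5; each colour is a circle named by its exons, and the vertical axes are separate. In Usp3 and Rnf169 a single circle made up most of every bar, whereas in Trim24, Rnf111 and Usp12 the leading circle differed between libraries.

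Ube2cbp, a protein that binds the E2 enzyme UBE2C and is also named Ube3d, had 15, 19, 21 and 0 reads over 5 circles. It was listed in all 3 embryonic libraries and absent from the alveolar list, at least 5.45-fold lower there than in the pseudoglandular library and at least 5.49-fold lower than in the terminal sac library. The linear reads at the ends of its circle of exons 2 to 8 were 52, 23 and 9 in the embryonic libraries in order of stage, while the circle had 4, 7 and 8 reads. The junction ratio of that circle was 0.133, 0.378 and 0.640, and its odds were 3.72-fold higher in the canalicular than in the pseudoglandular library (1.05 to 13.2). The ratio of 0.640 in the terminal sac library rests on 8 junction and 9 linear reads.

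Of the HECT ligases, Ube3a, which is imprinted in neurons, had 5, 17, 8 and 8 reads over 8 circles. It was 2.83-fold higher in the canalicular than in the pseudoglandular library (1.0 to 9.81), a call at the edge of the threshold that was lost when scaled by the median of ratios over hosts (log2 ratio 1.49) and without circles with repeated ends or few alignment patterns, and 2.46-fold lower in the terminal sac than in the canalicular library (1.01 to 6.59), a call lost when scaled by non-junction reads (log2 ratio -0.71). Herc1, a giant protein with HECT and RCC1-like domains, had 7, 3, 21 and 6 reads over 9 circles. The terminal sac library lay above the rest, 6.04-fold above the canalicular (1.81 to 31.7), and the alveolar was 2.74-fold below the terminal sac (1.07 to 8.30), a call lost when scaled by the median of ratios over hosts (log2 ratio -1.33). Its circle with most reads, of exons 26 to 30, had 8 reads in the terminal sac library and none listed elsewhere. Herc4 had 11, 0, 9 and 8 reads over 9 circles and was at least 4.41-fold lower in the canalicular than in the pseudoglandular library.

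Of the Ubr hosts, Ubr3 had 16, 2, 10 and 4 reads. It was 9.61-fold lower in the canalicular (2.26 to 86.2) and 4.36-fold lower in the alveolar (1.41 to 17.9) than in the pseudoglandular library. Its leading circle, of exons 2 to 5, had 9 reads in the pseudoglandular and 4 in the alveolar library. The ratio of that circle's shares was 0.408 (0.0917 to 1.46), which was not called. The linear reads at its ends were 513 and 800, and its odds were 3.29-fold lower in the alveolar library (1.07 to 10.2). Summed over the host, the non-junction reads were 1623 and 800. The odds ratio by these sums was 0.553 (0.194 to 1.57), also not called. Ubr4 had a circle of exons 3 to 8 with 10 reads in the terminal sac library and none listed elsewhere. Ube4b, which extends ubiquitin chains, had 8, 8, 5 and 3 reads and was called in no comparison by its share. Summed over the host, its odds were 3.9-fold higher in the terminal sac than in the canalicular library (1.32 to 11.5).

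Usp3 led the deubiquitinases and all 123 hosts, with 121, 145, 150 and 94 reads. It was called in no comparison: the ratio of shares in the alveolar against the pseudoglandular library was 0.712 (0.538 to 0.941), whose interval excludes 1 but whose size is under the threshold. The circle of exons 2 to 8, 670 coding bases of a gene with 15 exons, held 112, 129, 130 and 82 of the reads, 88.8% of the total. The linear reads at its ends were 360, 222, 183 and 148, with most in the pseudoglandular library. The junction ratio was 0.384, 0.537, 0.587 and 0.526, and the odds of junction to non-junction reads were 1.78-fold higher in the alveolar than in the pseudoglandular library (1.26 to 2.51) and 1.87-fold higher in the canalicular than in the pseudoglandular library (1.38 to 2.53). Both lay under the threshold of 2-fold. Summed over the host, the odds ratio was 0.701 (0.531 to 0.927) in the alveolar against the pseudoglandular library, the opposite direction. It was 1.06 (0.823 to 1.36) in the canalicular against the pseudoglandular library. The direction between the alveolar and pseudoglandular libraries thus depended on the measure. A junction ratio above 0.5 means that, counted per end, junction reads outnumbered linear reads, which was so in 3 of the 4 libraries. The next Usp3 circle, of exons 4 to 8, had 5, 7, 8 and 6 reads and a ratio between 0.0178 and 0.0328.

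Usp12 and Usp46 encode related deubiquitinases that need the WDR48 cofactor, and the pair had 16 and 0 junction reads in the alveolar library. Usp12 had 3, 3, 15 and 16 reads, the later libraries lying above the earlier ones. Its share was 4.89-fold higher in the alveolar than in the pseudoglandular library (1.40 to 26.2) and 4.32-fold higher in the terminal sac than in the canalicular library (1.22 to 23.3). Its circle of exons 4 to 6 had 3, 3, 6 and 10 reads, and the circle of exons 3 to 6, which ends at the same base, had 0, 0, 9 and 6. Usp46 had 5, 7, 16 and 0 reads and was at least 4.18-fold lower in the alveolar than in the terminal sac library. Its circle of exons 2 to 4 had 5, 3, 12 and 0 reads, and its odds were 4.89-fold higher in the terminal sac than in the canalicular library (1.49 to 16.1).

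Usp33, a deubiquitinase bound by the VHL protein, had 2, 0, 11 and 6 reads and was at least 3.17-fold higher in the terminal sac than in the canalicular library. Usp34, which acts on axin in Wnt signalling, had 7, 17, 6 and 11 reads over 12 circles, the most circles of any of the 123 hosts. It was 3.28-fold lower in the terminal sac than in the canalicular library (1.23 to 10.2), a call lost when scaled by non-junction reads (log2 ratio -1.12). As a family, the Usp hosts held 0.754% (0.653 to 0.867), 0.836% (0.738 to 0.943), 0.816% (0.726 to 0.914) and 0.565% (0.481 to 0.659) of listed junction reads in order of stage, over 19, 21, 23 and 11 listed hosts. The alveolar interval lay below those of the canalicular and terminal sac libraries and overlapped the pseudoglandular one. Circles with repeated ends or few alignment patterns were kept here. For Ube2 the alveolar interval lay below the canalicular (0.0571 to 0.130 against 0.158 to 0.262). For Cul it lay below the pseudoglandular (0.0145 to 0.0603 against 0.107 to 0.205). For Trim it lay above the terminal sac (0.137 to 0.241 against 0.0628 to 0.128). In Ube2, Cul and Trim alike the alveolar interval overlapped those of the remaining libraries. In every family other than these and Usp it overlapped those of all earlier libraries. Host counts over all genes are given above. Usp9x and Usp37, named after their values were seen, had 16 and 15 reads in the embryonic libraries and none listed in the alveolar library.

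The comparison of junction with non-junction reads within a library sets each circle against the linear RNA at its own ends. Over the 41 hosts with 20 or more reads the median junction ratio was 0.0270, and over all 1121 such hosts it was 0.0296. The highest host ratios were those of Ube2cbp (0.278), Rnf169 (0.178), Usp3 (0.147), Fbxw7 (0.146) and Fbxw4 (0.125). The lowest were those of Fbxo11 (0.00849), Cul1 (0.00952), Rnf2 (0.00958), Usp34 (0.00992) and Rnf13 (0.0108). Sums over a host count the same linear reads more than once where circles share an end and leave out circles that are not listed, so the leading circle is the cleaner measure. Rnf169 shows the difference. Its summed non-junction reads were 881, 1161, 472 and 1210, with 1 circle listed in the terminal sac library, and by these sums its odds were 2.76-fold higher in the terminal sac than in the canalicular library (2.08 to 3.67). For its leading circle alone the odds ratio was 1.95 (1.45 to 2.63), under the threshold.

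By the leading circle, 0 of 18 hosts had higher and 3 had lower odds in the alveolar than in the pseudoglandular library, beside 16.4% and 6.61% of all hosts, the lower ones being Fbxo8, Fbxl5 and Ubr3. In the canalicular against the pseudoglandular library 3 of 15 were higher (Ube2e3, Trim24 and Ube2cbp) and 0 were lower, beside 12.2% and 4.89%. In the terminal sac against the canalicular library 2 of 20 were higher (Usp46 and Rnf2) and 0 were lower, beside 21.7% and 3.26%. In the alveolar against the terminal sac library 1 of 21 was higher (Trim33) and 2 were lower (Fbxo8 and Trim24), beside 3.52% and 20.3%. Summed by host, 2 of 32 were higher and 1 lower in the first of these comparisons (15.1% and 8.21% of all hosts), 2 of 36 and 0 in the second (8.72% and 8.05%), 7 of 44 and 1 in the third (18.9% and 5.17%), and 4 of 41 and 6 in the fourth (7.02% and 14.3%).

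**Figure D5:**
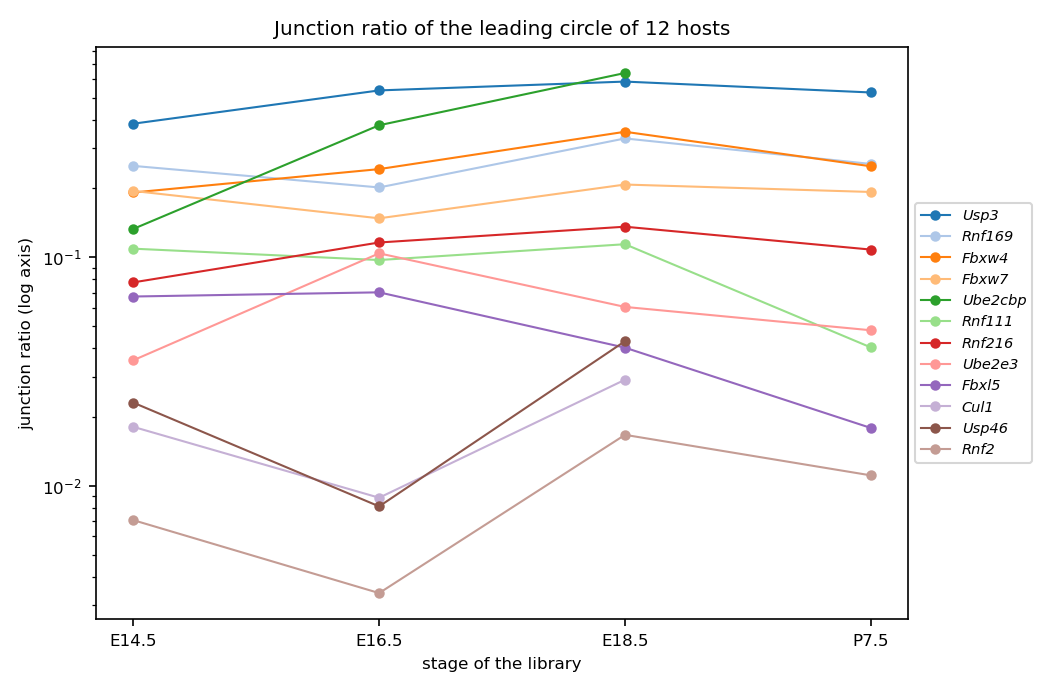
Junction ratio of the leading circle of 12 ubiquitin-system hosts (log axis) at embryonic days 14.5, 16.5 and 18.5 and newborn day 7.5; a missing point is a library in which the circle was not listed. Usp3 runs between 0.384 and 0.587, Ube2cbp reaches 0.640 in the terminal sac library, and Rnf2 lies lowest, between 0.00339 and 0.0167.

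Counted circle by circle rather than by host, 1 of 25 circles was higher and 4 were lower in the alveolar than in the pseudoglandular library, beside 15% and 18.6% of all circles. In the canalicular against the pseudoglandular library 3 of 25 were higher and 2 lower, beside 12% and 9.67%. In the terminal sac against the canalicular library 3 of 30 were higher and 5 lower, beside 11.8% and 11.8%. In the alveolar against the terminal sac library 1 of 31 was higher and 3 lower, beside 10.1% and 15.5%. Of the leading circles of the 41 hosts with 20 or more reads, 39 had both ends at exon boundaries, 20 began at exon 2, 2 were single exons (Fbxw7 and Rnf216) and 17 were listed in all 4 libraries. Coding sequence made up the whole of 28 of them and a part of 11.

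The rest of the ubiquitin system was read from a list of 118 genes, 75 of which were hosts. In the alveolar against the pseudoglandular library 3 of 24 were higher and 6 lower, beside 15.2% and 17.2% of all hosts, with a median log2 ratio of -0.56 where all hosts had -0.12. Nedd4, a HECT ligase of membrane proteins that gave its name to a family, had 16 reads in the alveolar library against 41 in the pseudoglandular, 2.79-fold lower (1.53 to 5.33). The HECT ligases Huwe1 (2 against 10) and Trip12 (8 against 21) were also lower, as were Ttc3 (140 against 297), the cullin adaptor Spopl (5 against 30) and the deubiquitinase Zranb1 (5 against 16). Higher were the SUMO ligases Pias1 (46 against 21) and Pias2 (14 against 4), and the ligase Arih1 (27 against 12). In the canalicular against the pseudoglandular library 2 of 29 were higher and 2 lower, beside 11.5% and 11.4% of all hosts. Between the terminal sac and canalicular libraries 5 of 30 were higher and 5 lower in the terminal sac, beside 14.5% and 12.5%, and in the alveolar against the terminal sac library 1 of 25 and 6, beside 12.1% and 16.4%. Spopl had the largest fold of this list that is not a bound, with 66 reads in the terminal sac against 4 in the canalicular library, 14.2-fold higher (5.31 to 53.8), and 5 in the alveolar against 66 in the terminal sac library, 10.3-fold lower (4.22 to 32.9). None of the 4 listed hosts among the E1 and related activating enzymes had enough reads to be compared.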

How the data were processed

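For every circRNA the authors deposited counts of junction and of non-junction reads, unnormalised per the file headers: reads across the back-splice, and reads aligned linearly across the same ends (a blank was read as 0). The deposited junction ratio is a fraction (2 times the junction reads, divided by the same plus the non-junction reads), and recomputing it gave 0 mismatches. The deposited alignment-pattern column counts distinct alignments of junction reads, per the file headers and what the caller CIRI writes there. The files' column names match CIRI. Build mm10, BWA, cutadapt, HTSeq, StringTie and HISAT2 2.0.5 stand in the submitters' processing notes without roles, and filters beyond the minimum of 2 reads seen in the values are not given in the sources used here.

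Deposited gene identifiers were matched to GENCODE M21 (4647 of 4653 found). Of the circles used here, 3 had several identifiers and went to the ubiquitin-system gene among them. Exons were numbered in an M21 transcript whose exon boundaries match the circle, and failing that in a transcript containing its ends. Reads were summed by host, all hosts were compared, and the rows of the 123 hosts were read out. Ratios of shares carry exact conditional binomial 95% intervals, shares Clopper-Pearson intervals, and odds ratios Woolf intervals with 0.5 added to each count. The calculations were tested on simulated data. Depth was 25983 to 36156 listed junction reads per library, which limits most hosts to a few reads.

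The members, lists, thresholds and tests were chosen with earlier results of these data known. Named hosts were the 15 with most reads, the leading host of each name family, those ranked first among the called (8 in each direction between the alveolar and pseudoglandular libraries, 5 in each direction for a consecutive step, ranked by the interval's end nearest to 1), the 5 highest and 5 lowest junction ratios, the 5 with most circles and up to 3 each way by odds. Others were chosen after their values were seen, and some hosts that the rule selects are not reported here. Alternatives were other scalings, other minimum counts (20 or none), single circles, leading circles only, and leaving out circles with repeated ends or few alignment patterns. Python 3.11.15, numpy 2.4.6, pandas 2.3.3, scipy 1.17.1 and matplotlib 3.10.9 were used.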

Additional observations from a re-analysis of the deposited data

How the results depend on the processing

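No paired analysis was possible because each stage had 1 library, and none could be left out for the same reason. Counts of called hosts are given as higher and lower. With a minimum of 20 reads in the pair, the counts by junction reads were 2 and 4 of 17 in the alveolar against the pseudoglandular library. Over all hosts 17.3% and 20.4% were called there. In the canalicular against the pseudoglandular 1 of 17 was lower (10.4% of all hosts). In the terminal sac against the canalicular 3 of 24 were higher (14.4%). In the alveolar against the terminal sac the counts were 3 and 5 of 22 (10.7% and 16.1%). By odds they were 1 and 0 of 16 in the first comparison (17.5% and 8.66% of all hosts). In the third 0 of 23 were lower (6.22%), and in the fourth 1 of 21 was higher (8.1%). With no minimum, 11 were lower in the first, 11 lower in the second and 11 higher in the third. Circle by circle the counts were 1 and 4 in the first, 2 lower in the second, 3 higher in the third and 1 and 3 in the fourth. By the odds of the leading circle, an alternative chosen after the data were seen, they were 0 and 3 in the first, 2 and 0 in the third and 1 and 2 in the fourth. Scaled by non-junction reads, the third gave 15 and 3. The shares over all circles or hosts for the circle-wise, leading-circle and scaled counts are given above. The minimum and the circle-wise count change how many features are compared, and for the other settings the cause was not tested. Of the 80 recounts 53 were within 1.5 times of the reported value. Of 313 recomputed values of single hosts 285 kept their call, 28 lost it and 0 reversed. The 285 include 35 recomputed with a minimum of 20 reads and 46 with none. These settings only choose which hosts are compared, so those calls could not change. Circle by circle 15 kept their call and 10 lost it, and by the leading circle 4 kept it and 4 lost it. Scaling shifted all log2 ratios by up to 0.59, and by 0.38, 0.14 and -0.35 in the remaining comparisons with the same scaling, by 0.12 and 0.13 in the alveolar comparisons with the median of ratios over hosts, and by 0.17 and 0.18 in the first and second with the total of non-junction reads. Depth limits every host under 10 reads, and a bound assumes 3 or fewer reads in the library without a listing.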
